A study of Homo sapiens with 6 samples.

Results

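Mitochondrial fission and fusion genes were followed in CAL-27 cells, an established human line derived from squamous carcinoma of the tongue, after knockdown of XBP-1s. XBP-1s is the transcription factor made when the ER stress sensor IRE1α splices XBP1 mRNA, and DRP-1, the product of DNM1L, is the fission enzyme whose inhibition the study tied to ER stress and antigen presentation. The 10 genes were taken by name: DNM1L, FIS1, MFF, MIEF1 and MIEF2 for fission, and MFN1, MFN2, OPA1, OMA1 and YME1L1 for fusion and the processing of OPA1. They are 10 of the 19740 genes that the array annotation could be matched to, and they were measured by 18 probes. The comparison was of CAL-27 cells with a hairpin RNA directed at XBP-1s (shXBP-1s, n = 3) with CAL-27 cells that received a control hairpin (shCtrl, n = 3), with no other treatment, drug or time point given. The cells were stably transduced. The sources used here do not say whether each line was a clone or a pool, how many hairpins were used, or whether the 3 samples of a group were separate cultures, so the p-values measure the spread between these samples, which may be technical.

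Mitochondria divide and join continually. DRP-1 is a large GTPase that is recruited from the cytosol by receptors on the outer membrane (MFF, FIS1 and the MiD proteins encoded by MIEF1 and MIEF2), forms a ring and constricts the organelle. Outer membranes are joined by the mitofusins (MFN1 and MFN2) and inner membranes by OPA1, whose long and short forms are set by the proteases OMA1 and YME1L1. Much of the control of this machinery lies in phosphorylation, cleavage and recruitment of proteins, none of which an mRNA array measures. In RNA from whole cultures, fewer cells expressing a gene and less RNA per cell cannot be told apart.

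Each sample was hybridised to 1 Agilent 1-colour array, and 82.1% to 84.8% of the spots on an array were well above background. The 75th percentile of the signal was 687.4, 761.31 and 755.38 on the shCtrl arrays and 983.39, 894.5 and 792 on the shXBP-1s arrays. Levels below are log2 intensities minus that percentile of the same array, so a level of 0 equals the 75th percentile and a difference between groups is a log2 fold change, shXBP-1s over shCtrl. The shXBP-1s arrays were brighter as a whole, and several genes described as lower had similar or brighter raw signals there. OPA1, for example, had raw signals of 993.9, 1006 and 1078 on the shCtrl arrays against 1162, 1060 and 874.3. The arrays were scanned on 2 occasions: shCtrl replicates 2 and 3 in the earlier scan, and shCtrl replicate 1 with all 3 shXBP-1s replicates in the later one. The difference within the later scan, which rests on 1 shCtrl array, is given for some probes. Where it is not given, agreement with the whole comparison is not implied.

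The knockdown was visible in its target. The XBP1 probe (A_23_P120845, annotated to NM_005080) read 1.88, 1.85 and 1.87 in shCtrl and -0.50, -0.54 and -0.52 in shXBP-1s (log2 fold change -2.39, SE 0.041, limma adjusted p = 2.81e-07). The annotation does not say whether this probe tells spliced from unspliced XBP1. TPP2, the peptidase that the study placed downstream of XBP-1s, read -0.64, -0.61 and -0.65 in shCtrl and 0.03, 0.07 and 0.18 in shXBP-1s (log2 fold change 0.73, SE 0.053, limma adjusted p = 2.48e-05). It was 0.77 in the authors' deposited values. The study reported TPP2 as lower after the knockdown, by microarray, qRT-PCR and immunoblotting, which is the opposite direction to this probe. The reason was not tested. All 7 squamous epithelial markers were well above background on all 6 arrays and were brighter on the shXBP-1s arrays, with summed raw signals of 41080 to 45010 in shCtrl and 61820 to 68760 in shXBP-1s. The marker signals in this paragraph are raw, and the shXBP-1s arrays were brighter as a whole, so part of each rise is the scale of the arrays. The change was also uneven. KRT6A ran from 177.5 to 205.1 in shCtrl and from 4284 to 4685 in shXBP-1s. EPCAM, much brighter, ran from 17110 to 19480 and from 21720 to 23450. Markers of other cell types were dim: the summed signal ran from 182.5 to 196.8 and from 269.6 to 313.9 for 4 fibroblast genes, from 326.4 to 413.9 and from 418.2 to 468.2 for 3 leukocyte genes, and from 149.9 to 177.7 and from 193.6 to 255.6 for 3 endothelial genes, although 9 of these 10 passed the background call on every array (PDGFRA on 4). Within the fibroblast list, LUM ran from 25.43 to 30.84 in shCtrl and from 127.3 to 133.2 in shXBP-1s. COL1A1 went the other way, from 102.4 to 111.1 and from 70.77 to 100.3. No marker list included a defining gene at 0, and the part of these shifts in the results below was not tested.

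Because the perturbation reduced a transcription factor, the RefSeq promoter windows of the members (GRCh38.p14, 250 bases before to 50 from the transcription start on) are shown for the fission enzyme and for the receptor with the largest single change, beside that of XBP1. Windows were held for 9 of the 10 members, 12 in all. Capitals mark CCACG on either strand (CGTGG when read from the other strand), and in XBP1 also the CCAAT that stands 9 bases before it and completes the ER stress element. Each sequence runs 5′ to 3′ along its gene.
XBP1, chr22:28800520-28800819, minus strand: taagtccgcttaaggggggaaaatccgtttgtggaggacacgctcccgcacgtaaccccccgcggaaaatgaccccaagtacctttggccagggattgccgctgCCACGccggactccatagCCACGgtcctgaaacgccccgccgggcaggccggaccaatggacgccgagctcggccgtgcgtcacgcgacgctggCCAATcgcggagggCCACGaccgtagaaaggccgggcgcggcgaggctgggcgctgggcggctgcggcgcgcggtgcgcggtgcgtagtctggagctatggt
DNM1L, chr12:32679051-32679350, plus strand: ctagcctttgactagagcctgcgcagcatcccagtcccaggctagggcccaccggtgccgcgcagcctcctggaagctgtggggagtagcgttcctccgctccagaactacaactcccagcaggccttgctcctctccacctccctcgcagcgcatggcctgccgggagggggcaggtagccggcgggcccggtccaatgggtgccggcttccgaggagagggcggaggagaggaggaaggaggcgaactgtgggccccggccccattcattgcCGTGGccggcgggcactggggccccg
MFF, the most upstream of 3 windows, chr2:227325001-227325300, plus strand: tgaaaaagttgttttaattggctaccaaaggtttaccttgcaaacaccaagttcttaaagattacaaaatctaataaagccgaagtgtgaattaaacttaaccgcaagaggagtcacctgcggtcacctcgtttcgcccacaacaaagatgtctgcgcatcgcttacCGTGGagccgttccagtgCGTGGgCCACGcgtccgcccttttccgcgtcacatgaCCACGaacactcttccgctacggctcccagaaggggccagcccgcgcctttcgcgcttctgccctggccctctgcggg
The complete ER stress element, CCAAT and CCACG spaced by 9 bases on either strand, was present at -52 in the XBP1 window shown. That is 1 of 2 XBP1 windows, and the other lacked the element. It was in 0 of the 12 member windows, against 0.0769% of all 35116 windows. TGACGTG, the core of the unfolded protein response element, was in 0 member windows and in 1.97% of all windows. CACGTG, which shares 5 letters with that core, was in 0 member windows and in 7.26% of all windows, and stood at -110 in the window of TPP2. CCACG alone, which also forms part of the complete element, was found in 4 of the 12 member windows, those of DNM1L, MFF, MIEF2 and MFN1, and in 38.1% of all windows. In the MFF window shown it occurred 4 times, starting at -83, -65, -59 and -28, and in each of the other MFF windows 0 times. How many of all windows hold it that often was not counted. These matches describe letters in short windows and do not bear on binding elsewhere.

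At the transcript level the fission and fusion genes differed little between shXBP-1s and shCtrl cells. With each gene represented by its brightest probe, 0 of the 10 reached an adjusted p below 0.05 together with a 2-fold difference. That limit was passed by 5.18% of the 16821 tested genes. At 1.5-fold the count was also 0, where 15.5% of all genes passed. The dimmer MFF probe was 1.73-fold lower (limma adjusted p = 4.75e-06) but did not stand for its gene. The methods' t-test likewise gave 0 at 2-fold, adjusted (4.76% of all genes) or not (4.98%). Without a minimum fold, limma called 5 of the 10 lower (DNM1L, MIEF1, MFN2, OPA1 and OMA1), where 27.5% of all genes were called lower, and 1 higher (YME1L1), where 18.9% were called higher. The 6 calls became 2 with the scan as a block (35.6% of all genes called) and 1 under normexp background correction (20.8%). They became 3 without shCtrl replicate 2 (40.3%), 3 without shCtrl replicate 3 (38.4%) and 2 without shXBP-1s replicate 2 (35.4%). The methods' t-test called 6 of the 10 unadjusted (48.4% of all genes) and 2 after adjustment (37.5%). In the main fit the members' 6 calls of 10 stood against 46.4% of all genes called in either direction. The groups of 3 arrays did not overlap for 6 of the 10, against 56.5% of all genes. The median log2 fold change was -0.15 over the members and -0.04 over all genes. In absolute size the members lay between FIS1, which exceeded 4.05% of all genes, and OPA1, which exceeded 56.1%.

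**Figure D1:**
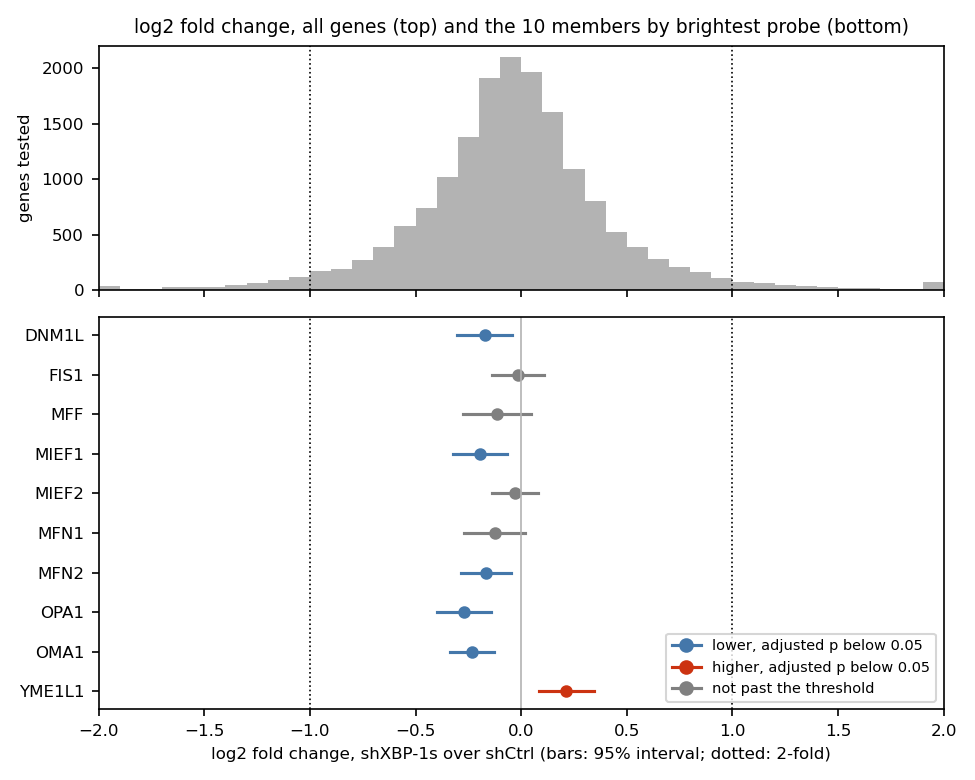
The upper panel is a histogram of the log2 fold changes (shXBP-1s over shCtrl) of the 16821 tested genes, with values past 2 in either direction placed in the outermost bars, and the lower panel shows the 10 fission and fusion genes by their brightest probe, points for the fold change and bars for the 95% interval from limma. All 10 points lie between -0.27 (OPA1) and 0.21 (YME1L1), well inside the dotted 2-fold lines; the points of FIS1, MFF and MFN2 change sign under normexp background correction and that of MIEF2 with the authors' deposited values.

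The fission enzyme itself was measured by 2 probes, both annotated to NM_012062, and both read lower in shXBP-1s. The brighter DNM1L probe (A_23_P204324) read 1.14, 1.1 and 1.13 in shCtrl and 1.05, 0.94 and 0.86 in shXBP-1s (log2 fold change -0.17, SE 0.056, 95% interval -0.30 to -0.04, limma adjusted p = 0.0402). Every shXBP-1s array was below every shCtrl array, but the gap between the nearest arrays was small, and the call was held by 6 of 19 alternative settings. The dimmer probe (A_24_P743907) read 0.02, 0.33 and 0.39 in shCtrl and -0.08, -0.08 and -0.31 in shXBP-1s (log2 fold change -0.40, SE 0.106, limma adjusted p = 0.0175). Here the shCtrl array of the later scan stood well below the other two, and within that scan the difference was -0.18, against -0.19 for the brighter probe. With the scan as a block neither call was held (limma adjusted p = 0.235 for the dimmer and 0.121 for the brighter), and the dimmer probe was called in 12 of 19 alternatives. The DNM1L signal was 1.13-fold lower by the brighter probe and 1.32-fold lower by the dimmer. Leaving out any array other than shXBP-1s replicate 1 lost the call of the brighter probe (adjusted p 0.0676 to 0.126), and leaving out shCtrl replicate 2, shCtrl replicate 3 or shXBP-1s replicate 3 did so for the dimmer one (0.0576 to 0.0594).

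MFF, the main docking receptor for DRP-1 on the outer membrane, gave the largest difference of any of the 18 probes, and only by 1 of its 2 probes. The dimmer MFF probe (A_23_P92994) read 1.38, 1.39 and 1.38 in shCtrl and 0.59, 0.59 and 0.60 in shXBP-1s. The groups were far apart, with an SD of 0.0070 and 0.0082, and the log2 fold change was -0.79 (SE 0.039, 95% interval -0.88 to -0.70, limma adjusted p = 4.75e-06), a 1.73-fold lower signal. The dimmer probe was past the threshold in 19 of 19 alternatives, between -0.80 and -0.71, and was -0.79 within the later scan. The brighter MFF probe (A_23_P405148) read 2.72, 2.91 and 2.84 in shCtrl and 2.61, 2.71 and 2.81 in shXBP-1s, and these ranges overlapped. Its log2 fold change was -0.11 (95% interval -0.27 to 0.05, limma adjusted p = 0.228), -0.01 within the later scan and 0.01 under normexp background correction. The array annotation gives both probes the transcript NM_020194, and where in MFF each lies was not analysed here.

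The other DRP-1 receptors differed little. FIS1, a tail-anchored protein of the outer membrane, read 0.31, 0.44 and 0.41 in shCtrl and 0.43, 0.32 and 0.37 in shXBP-1s, with overlapping groups (log2 fold change -0.02, 95% interval -0.14 to 0.11, limma adjusted p = 0.840). Its sign turned under 6 alternative settings and without either replicate 2, so no direction can be given. MIEF2, which encodes MiD49, read -0.10, -0.09 and -0.09 in shCtrl and -0.16, -0.15 and -0.06 in shXBP-1s (log2 fold change -0.03, 95% interval -0.14 to 0.08, limma adjusted p = 0.652).

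MIEF1, which encodes MiD51, was the only DRP-1 receptor called lower by its brightest probe, and its 3 probes, all annotated to NM_019008, were unequal in precision. That probe (A_23_P103131), printed in 10 spots per array, read 1.83, 1.89 and 1.81 in shCtrl and 1.57, 1.63 and 1.74 in shXBP-1s, without overlap (log2 fold change -0.20, SE 0.055, limma adjusted p = 0.0223). The call was held in 9 of 19 alternatives and was lost without shCtrl replicate 2, shXBP-1s replicate 1 or shXBP-1s replicate 2 (adjusted p 0.0647 to 0.0887). A probe in 1 spot (A_33_P3238074) read 0.59, 1.22 and 0.72 in shCtrl and 0.84, 0.74 and 0.79 in shXBP-1s. Its shCtrl replicate 2 stood apart, and its log2 fold change of -0.05 (limma adjusted p = 0.80) became 0.14 without that array and 0.20 within the later scan. The dimmest MIEF1 probe (A_23_P109547, 10 spots) had a log2 fold change of -0.12 (limma adjusted p = 0.289), with overlapping groups.

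The mitofusins, the GTPases that tether and fuse outer membranes, differed by small amounts, and MFN2 was called lower. MFN1 had 1 probe (A_23_P80648, NM_033540), which read -0.68, -0.55 and -0.63 in shCtrl and -0.79, -0.80 and -0.65 in shXBP-1s, with overlap (log2 fold change -0.13, 95% interval -0.27 to 0.02, limma adjusted p = 0.146, and -0.06 within the later scan). The bright MFN2 probe (A_23_P126135, NM_014874) read 3.74, 3.83 and 3.79 in shCtrl and 3.58, 3.61 and 3.69 in shXBP-1s. These did not overlap, and the log2 fold change was -0.16 (SE 0.051, limma adjusted p = 0.0328). It was -0.12 within the later scan and 0.03 under normexp background correction, and the call was held in 9 of 19 alternatives. Leaving out shCtrl replicate 2 or 3, or shXBP-1s replicate 1 or 2, lost this call (adjusted p 0.0834 to 0.127). A further MFN2 probe (A_33_P3320277) was close to background, with raw signals of 20.46 to 32.1. Its log2 fold change of 0.04 turned to -0.79 under normexp alone, but was 0.02 under normexp with quantile normalization. It was -0.11 within the later scan and -0.09 without shCtrl replicate 2.

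OPA1, the dynamin-related GTPase that fuses inner membranes and shapes cristae, was lower by 1 probe and higher by the other. The brighter OPA1 probe (A_23_P211797, NM_130837) read 0.53, 0.40 and 0.51 in shCtrl and 0.24, 0.25 and 0.14 in shXBP-1s. The groups did not overlap, and the log2 fold change was -0.27 (SE 0.055, 95% interval -0.40 to -0.15, limma adjusted p = 0.00500), or -0.32 within the later scan. The call was held in 18 of 19 alternatives, the exception being normexp background correction. The other OPA1 probe (A_33_P3346498, annotated to another OPA1 transcript, NM_130831) read -3.84, -3.85 and -3.89 in shCtrl and -3.58, -3.52 and -3.59 in shXBP-1s. It rose by 0.29 (SE 0.072, limma adjusted p = 0.0125) with no overlap, but at raw signals of 48.04 to 82.06 it was dim. Under normexp alone it was -0.41, and under normexp with quantile normalization it was 0.14. Its call was also lost without shXBP-1s replicate 2 (adjusted p = 0.0690) and with the scan as a block (0.0759, at 0.27).

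The proteases that cut OPA1 moved in different directions by their brightest probes. OMA1, the stress-activated protease of the inner membrane, fell by 0.23 on the log2 scale (A_23_P138137: -0.12, -0.10 and -0.07 in shCtrl, -0.34, -0.36 and -0.29 in shXBP-1s, SE 0.045, limma adjusted p = 0.00411), and this call was lost only under normexp among 19 alternatives. Its other probe (A_23_P138139) was also lower, by a log2 fold change of -0.16 (SE 0.047, limma adjusted p = 0.0283), called in 8 of 19 alternatives. The OMA1 probes therefore shared a direction, and neither pair of groups overlapped. Of the leave-one-out fits, those without shCtrl replicate 2 or 3, or shXBP-1s replicate 2 or 3, lost the call of this other probe (adjusted p 0.0523 to 0.143).

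YME1L1, the i-AAA protease that cuts OPA1 constitutively, was the only member called higher by its brightest probe. That probe (A_23_P104201, 10 spots, NM_139312) read 1.88, 1.83 and 1.78 in shCtrl and 1.97, 2.03 and 2.13 in shXBP-1s (log2 fold change 0.21, SE 0.057, limma adjusted p = 0.0175). The call was held in 15 of 19 alternatives, was lost without shCtrl replicate 3 (adjusted p = 0.0684) or shXBP-1s replicate 2 (0.0608), and the difference was 0.16 within the later scan. The dimmer YME1L1 probe (A_24_P167052, annotated to the same transcript) read 1.56, 1.47 and 1.49 in shCtrl and 1.15, 1.15 and 1.15 in shXBP-1s. It fell by 0.36 on the log2 scale (SE 0.043, limma adjusted p = 3.47e-04), was called lower in 19 of 19 alternatives and was -0.41 within the later scan. The brighter and the dimmer probe thus gave opposite calls for this gene.

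**Figure D2:**
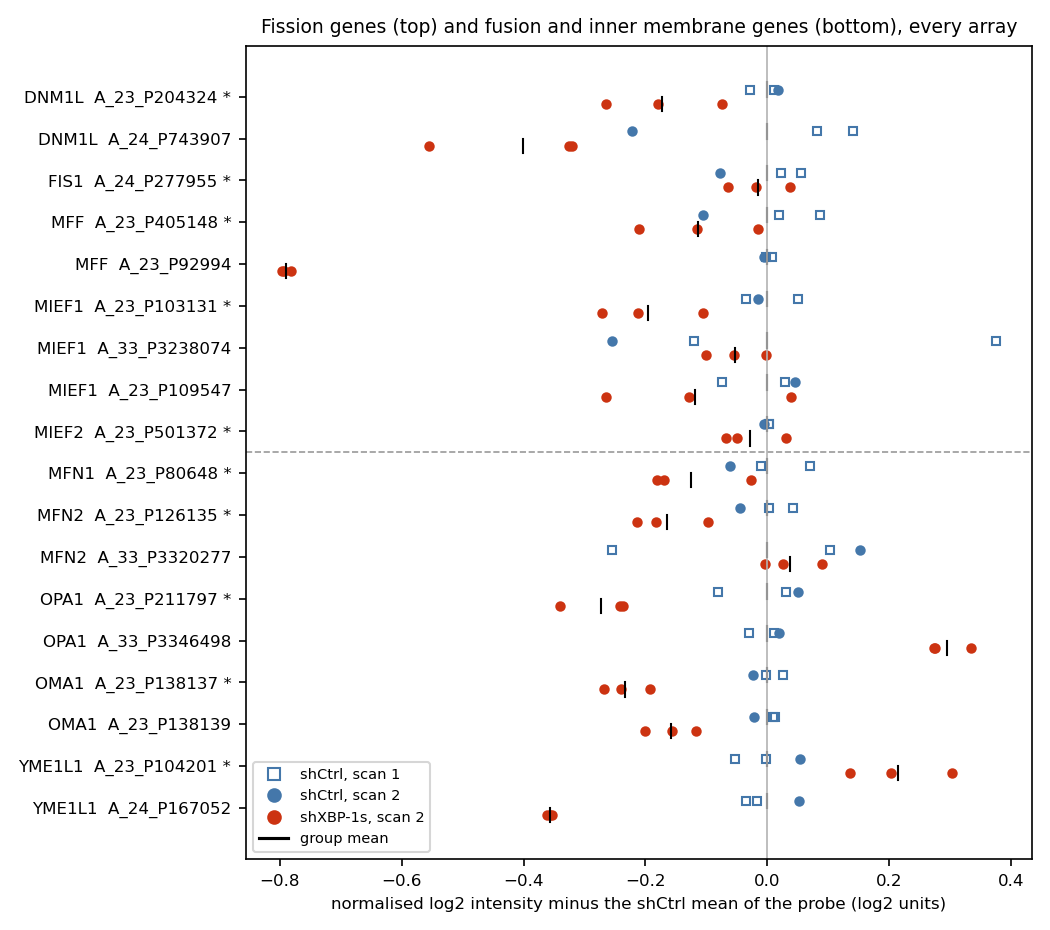
Every array is plotted for each of the 18 probes as its normalised log2 intensity minus the shCtrl mean of that probe, with black ticks for group means, open squares for the earlier scan, filled circles for the later one, and an asterisk on the brightest probe of a gene. The dimmer MFF probe stands farthest left at -0.79. The dimmer OPA1 probe (which reverses under normexp alone) and the brighter YME1L1 probe stand to the right. The FIS1 and MIEF2 arrays of the groups overlap.

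By probe, 11 of the 18 were called, 9 lower and 2 higher, where 41.7% of all 27624 tested probes were called in either direction. The disagreement within genes was examined directly, since a difference between probes of 1 gene on the same array is free of the array's scale. Of 9 pairs of probes within members, the change in the within-array difference did not overlap between groups for 4. These were MFF (0.68), OPA1 (-0.57), YME1L1 (0.57) and OMA1 (-0.08), brightest minus other probe. Each was at the smallest 2-sided exact permutation p that 3 arrays against 3 allow, 0.1 (0.225 adjusted over the 9 pairs). The share of all within-gene pairs without overlap was not computed, so the 4 of 9 have no reference. A limma fit over all 4875 pairs of a brightest and another probe of the same gene, added after the data had been seen, called 33.2% of them. It called 3 of 8 such member pairs: MFF (SE 0.085, adjusted p = 0.00154), YME1L1 (SE 0.074, adjusted p = 0.00173) and OPA1 (SE 0.075, adjusted p = 0.00187). Probes called in opposite directions, as in OPA1 and YME1L1, were found in 6.96% of the 4053 genes with at least 2 tested probes and in 2 of the 7 such members. The OPA1 difference became 0.18 under normexp alone and -0.38 under normexp with quantile normalization. Those of MFF and YME1L1 lay between 0.63 and 0.78 and between 0.53 and 0.62 under every scaling, scan and leave-one-out alternative run.

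**Figure D3:**
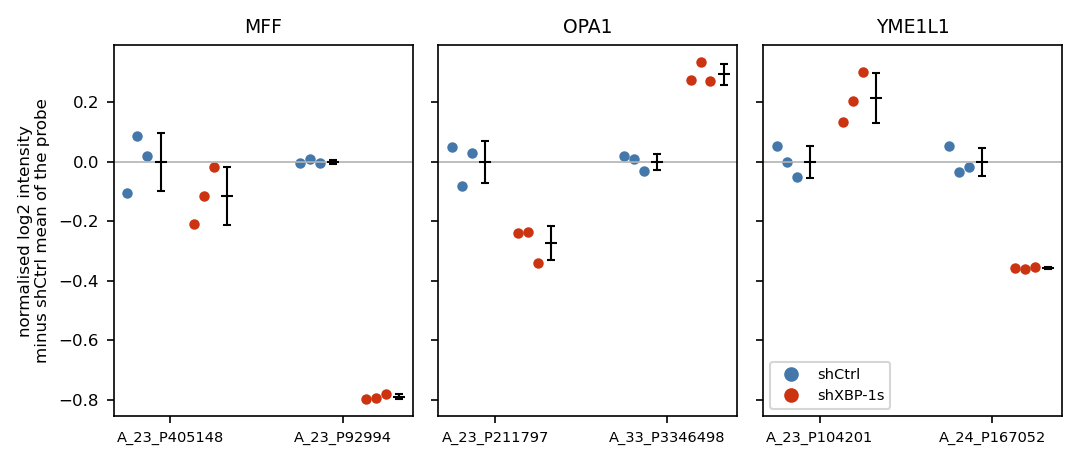
For MFF, OPA1 and YME1L1, each panel shows the brighter probe on the left and the dimmer on the right, with 3 shCtrl and 3 shXBP-1s arrays as normalised log2 intensity minus the probe's shCtrl mean; black bars are the group mean ± SD. For MFF only the dimmer probe separates (-0.79 against -0.11). For OPA1 the dimmer probe is higher (0.29, though -0.41 under normexp alone) while the brighter is lower (-0.27). For YME1L1 the brighter is higher (0.21) while the dimmer is lower (-0.36).

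The genes were also set side by side by role. The median over the 5 fission genes, each relative to its own shCtrl mean, was -0.02, 0.05 and 0.01 on the shCtrl arrays and -0.07, -0.11 and -0.02 on the shXBP-1s arrays. The lowest shCtrl array and the highest shXBP-1s array nearly touched. Over the 5 fusion and processing genes the median was -0.02, -0.0016 and 0.0032 in shCtrl and -0.21, -0.18 and -0.10 in shXBP-1s. Every shXBP-1s array thus lay below the shCtrl arrays, but the groups also did not overlap for 56.5% of all single genes. Medians of other gene sets were not computed for reference, and the role medians were taken under the main scaling only. Under normexp the median log2 fold change of all members together went from -0.15 to -0.05, and that of all genes from -0.04 to -0.29. No difference between the roles was tested.

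Around this core, 74 further genes were grouped into 6 lists of accessory fission and fusion factors, enzymes that modify DRP-1 or the mitofusins, cristae and transport proteins, and markers of mitochondrial content. Of these, 72 were tested, and 15 were called higher and 20 lower, or 48.6% against the 46.4% of all genes. PHB2 and PPP2R2B had no matched probe. The median log2 fold change over the lists was close to 0. Each gene stands by its brightest tested probe alone. Of the genes named below, SH3GLB1, SLC25A46, KIF5B, TOMM20, TFAM and VDAC1 had 2 probes each, and the change of the dimmer one is not given.

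The shares for all genes in the main fit, 27.5% called lower and 18.9% called higher, apply to each list. In either direction, 35.6% of all genes were called with the scan as a block, 20.8% under normexp and 35.4% without shXBP-1s replicate 2. Among 10 accessory fission genes, 6 had a negative and 4 a positive log2 fold change (median -0.11), and 4 were called lower and 1 higher (2 and 3 with the scan as a block). STX17, a SNARE that also takes part in autophagosome fusion, fell by 0.72 on the log2 scale (limma adjusted p = 2.44e-04, called in 19 of 19 alternatives), and MTFP1, an inner membrane protein that promotes fission, fell by 0.48. SH3GLB1, the membrane-curving protein also called endophilin B1, rose by 0.62. Among 11 tested genes of fusion and OPA1 processing, 6 had a positive and 5 a negative log2 fold change (median 0.01), and 2 were called higher and 1 lower. With the scan as a block, or without shXBP-1s replicate 2, 1 was called higher. PLD6, the phospholipase MitoPLD of the outer membrane, fell by 0.69 (limma adjusted p = 1.27e-04), whereas MIGA1, a mitoguardin that stabilises MitoPLD, rose by 0.40 and SLC25A46, an outer membrane carrier-family protein, rose by 0.40 (0.25 and not called with the scan as a block).

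The 23 tested modifiers of DRP-1 and the mitofusins divided into 12 with a positive and 11 with a negative log2 fold change (median 0.04), of which 5 were called higher and 8 lower. PGAM5, a mitochondrial phosphatase, was higher by 0.82, but its probe was dim (levels of -4.18 to -3.23). The PGAM5 probe read -0.17 under normexp alone and 0.39 under normexp with quantile normalization. SENP5, a protease that removes SUMO from DRP-1, fell by 0.60 (limma adjusted p = 3.13e-05). CDK1, a kinase that activates DRP-1 by phosphorylation in mitosis, fell by 0.29 (called in 18 of 19 alternatives); it was singled out after its values had been seen.

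Of the 9 genes of the MICOS complex and its partners, which hold cristae junctions together, 5 had a positive and 4 a negative log2 fold change (median 0.02), and 4 were called higher and 1 lower. The 4 higher calls became 2 with the scan as a block, under normexp, with no filter on dim probes, in limma without trend, and without shCtrl replicate 2 or 3 or shXBP-1s replicate 1 or 2. APOOL was higher by 0.99 from a dim probe (levels of -3.57 to -2.25). That probe read -0.02 under normexp alone and 0.50 under normexp with quantile normalization. SAMM50, the outer membrane barrel assembly protein, rose by 0.40, and CHCHD6 fell by 0.24 (called in 13 of 19 alternatives). Of 7 transport genes, 6 had a negative log2 fold change and 2 were called lower: KIF5B, a kinesin heavy chain, at -0.19 and RHOT2, the mitochondrial adaptor Miro2, at -0.18, each called in 7 of 19 alternatives. Neither was called with the scan as a block or without shCtrl replicate 2 or shXBP-1s replicate 1 or 2, and 1 of them was called without shCtrl replicate 1 or 3. Of 12 genes marking mitochondrial content, 8 had a positive and 4 a negative log2 fold change, and 3 were called higher and 4 lower. TOMM20, an import receptor, fell by 0.65 (limma adjusted p = 1.06e-04), TFAM, the packaging factor of mitochondrial DNA, fell by 0.39, and VDAC1, the outer membrane channel, fell by 0.31, while the median of that list was 0.06.

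**Figure D4:**
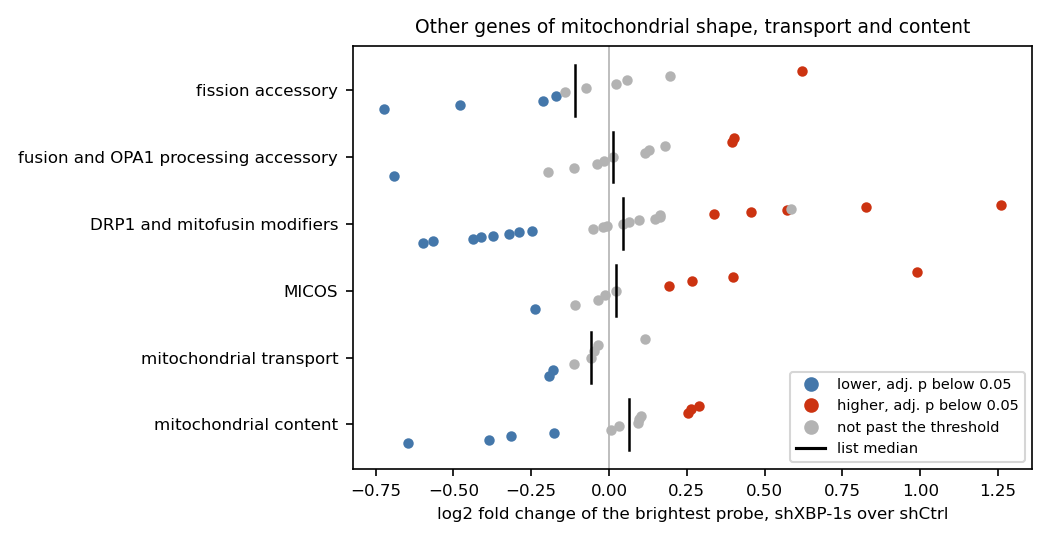
Each point is 1 of 72 tested genes in 6 lists, placed by the log2 fold change of its brightest probe (shXBP-1s over shCtrl), with red and blue for an adjusted p below 0.05 and black bars for list medians. Called genes lie on both sides of 0 in 5 lists and on the lower side in mitochondrial transport, and the medians run from -0.11 to 0.06. PGAM5 (0.82) and APOOL (0.99) read below 0 under normexp alone.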

How the data were processed

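RNA from CAL-27 cells was measured on 6 Agilent 1-colour arrays (shCtrl, n = 3; shXBP-1s, n = 3), with groups and replicate numbers taken from the sample titles. The authors deposited, per array, the intensity of every spot from Feature Extraction 11.0.1.1, background-subtracted and detrended but not normalized between arrays. The authors also deposited 1 table of log2 values with equal quartiles on all 6 arrays. It tracked the log2 scanner signal of its own array (r of at least 0.99998), its centring was not stated, and it served only as an alternative. The submitters' processing notes name RMA. The sample labels describe a NimbleGen labelling procedure, whereas the scanner output and the methods give an Agilent design.

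From the intensities, log2 minus the 75th percentile of the array's non-control spots was taken, outlier-flagged spots (230 to 377 per array) were dropped, and repeated spots were averaged to 1 value per probe. limma 3.58.1 in R 4.3.3 (eBayes with trend, 2-sided) was fitted to the 27624 of 34127 probes that were well above background, by more than 50% of their spots, on every array of shCtrl, of shXBP-1s or of both groups, with Benjamini-Hochberg adjustment over all of them. Accessions were matched without version to RefSeq symbols, for 25771 probes. The array annotation names hg19, so probe positions are left out. The brightest tested probe stood for each gene. The number of arrays limits the precision: 3 against 3 allow no exact permutation p below 0.1. No spot was saturated.

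The members, the lists and the tests were chosen with earlier results of these data known. Named were XBP1, TPP2, every member probe, and from each list the called genes of lowest p, at most 3; 1 gene that this rule names is not reported here. The limma step was also tested on simulated data. Alternatives were normexp background correction (offset 50, on the median spot signal since no mean signal column was present) alone or with quantile normalization, quantile normalization, median centring, the deposited log2 values, other filters, flagged spots kept, limma without trend, the methods' t-test, the scan as a block (planned as the slide), the replicate block, the probes of a gene averaged or taken singly, 1.5-fold, and leaving out each array.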

Additional observations from a re-analysis of the deposited data

How the results depend on the processing

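The count of 0 members at an adjusted p below 0.05 and 2-fold was the same under every alternative, where 1.58% to 6.18% of all genes passed. The count of members called without a minimum fold was 6 in the main fit, with 46.4% of all genes called. It was 1 under normexp (20.8% of all genes), 3 under normexp with quantile normalization (44.8%) and 3 under median centring (45%). It was 3 in limma without trend (42.5%) and 2 in the adjusted methods' t-test (37.5%). It was 2 with the scan as a block (35.6%) and 3 with the probes of a gene averaged (48%). Leaving out 1 array gave 2 to 5, with 35.4% to 50.2% of all genes called. These counts were 3 without shCtrl replicate 2 (40.3%), 3 without shCtrl replicate 3 (38.4%) and 2 without shXBP-1s replicate 2 (35.4%). The 35 calls in the 6 lists became 19 under normexp, where 20.8% of all genes were called. Normexp also moved the median log2 fold change of all genes from -0.04 to -0.29. Of 342 refits of single member probes, 265 kept direction and side of the threshold, 58 lost the call with the sign kept and 19 changed sign. The changes of sign were, under normexp, FIS1 (0.0102), the brighter MFF probe (0.0083), A_33_P3238074 of MIEF1 (0.022), the brighter and dimmer MFN2 probes (0.0261 and -0.79) and the dimmer OPA1 probe (-0.41). The brighter MFN2 and dimmer OPA1 probes also lost their calls there. Outside these refits, the OPA1 difference between probes (0.18), PGAM5 (-0.17) and APOOL (-0.0207) changed sign under normexp alone. Under normexp with quantile normalization they kept their signs, at -0.38, 0.39 and 0.50, and the dimmer OPA1 probe read 0.14. FIS1 read 0.0065 under normexp with quantile normalization, 0.0298 under quantile normalization, 0.0103 under median centring, 0.0444 in the deposited values and 0.0624 with the scan as a block. A_33_P3238074 of MIEF1 read 0.0033 in the deposited values and 0.20 with the scan as a block, MIEF2 read 0.0027 in the deposited values, and the dimmer MFN2 probe -0.11 with the scan as a block. Leaving out 1 array moved FIS1 between -0.0549 and 0.0117, A_33_P3238074 between -0.18 and 0.14, and the dimmer MFN2 probe between -0.0901 and 0.11. The cause of these changes was not tested.

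Replicate numbers did not pair the samples: same-numbered arrays correlated at -0.0158, 0.117 and -0.116 in their deviations from the group means. With a replicate block the members called were again 6 and the list calls 34, and all genes called were 7582 against 7803. Dim probes (MFN2 A_33_P3320277, OPA1 A_33_P3346498, PGAM5 and APOOL) are limited by signal over background, and differences of the members' size rest on 3 arrays a group.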
